A study of Mus musculus with 12 samples.

Results

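The suppressor of cytokine signalling (SOCS) family was examined in the transcriptional response of mouse intestinal stromal cells to lipopolysaccharide (LPS). The family was taken as the 8 genes Socs1 to Socs7 and Cish, found by symbol among the 23329 genes listed, and all 8 were among the 13038 genes that passed the filter on low counts. mRNAseq was performed on 12 libraries of primary small intestinal stromal cells, which the labels call intestinal myofibroblasts, from C57BL6/J mice without a transgene. Embryonic cells came from E14.5 embryos, pooled for each culture, and adult cells from adult mice, and both were grown from a collagenase digest after removal of the epithelium and used at passages 2 to 3. Each stage was cultured for 6 h with LPS from E. coli O111:B4 (given as 10 µg/µl in the labels, whereas another LPS experiment of the study gives its dose per ml, so the unit is uncertain) or with PBS vehicle, with 3 libraries in each of the 4 groups. The question was which cytokine signal suppressors were induced by LPS, and whether the embryonic and adult stroma differed.

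SOCS proteins are inducible brakes on cytokine receptors that signal through JAK kinases and STAT transcription factors. An SH2 domain binds phosphorylated receptor chains or kinases, and a C-terminal SOCS box recruits elongins, a cullin and a RING protein to mark the bound protein with ubiquitin. Socs1 and Socs3 also block JAK activity directly through a kinase inhibitory region, and they are known for restraining interferon and IL-6 family signals, respectively. Cish and Socs2 are classical STAT5 target genes of growth hormone and related cytokines, whereas Socs4 to Socs7 are less closely tied to cytokine induction. LPS itself signals through a Toll-like receptor and not through a JAK, and cytokines released by treated cells are the known link from it to JAKs.

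Sequence around the start is shown for the 3 genes that were highest after LPS relative to PBS, upstream of it for Socs1 and Socs3 and mostly in the first exon for Cish, because STAT factors and interferon-activated complexes bind there in other systems. RefSeq (GRCm38.p6) places Socs1 at chr16:10783808-10785536, Socs3 at chr11:117966079-117970336, Cish at chr9:107296659-107302784, Socs2 at chr10:95383903-95417321, Socs4 at chr14:47276920-47296102, Socs5 at chr17:87107278-87137647 and Socs7 at chr11:97362292-97398542. Promoter entries of the same build were matched for 4 of the 8 genes, Socs1, Socs3, Cish and Socs4. Each entry is a window of 300 bases, from 250 before to 50 after the start, and 32851 such windows formed the background. Both strands were searched for a STAT motif, TTCNNNGAA, an interferon-stimulated response element (ISRE), TTTCNNTTTC, an AP-1 motif, TGANTCA, and the NF-kB consensus. Capitals below mark the matched bases, and sequences run 5′ to 3′ on the strand of the gene. The Socs1 stretch is chr16:10785537-10785786 (minus strand), the 250 bases before the start, and the Socs3 stretch is chr11:117969452-117969616 (minus strand), 250 to 86 bases before the start, which falls in an intron of a longer Socs3 transcript and in no exon of GENCODE vM21. The Cish site is chr9:107296654-107296683 (plus strand), from 5 bases before the start to 25 after it, in the first exon.
Socs1: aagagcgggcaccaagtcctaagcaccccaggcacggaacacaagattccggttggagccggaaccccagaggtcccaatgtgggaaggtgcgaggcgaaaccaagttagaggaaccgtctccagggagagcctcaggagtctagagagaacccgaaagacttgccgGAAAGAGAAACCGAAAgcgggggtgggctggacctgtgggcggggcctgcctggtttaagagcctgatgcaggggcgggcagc
Socs3: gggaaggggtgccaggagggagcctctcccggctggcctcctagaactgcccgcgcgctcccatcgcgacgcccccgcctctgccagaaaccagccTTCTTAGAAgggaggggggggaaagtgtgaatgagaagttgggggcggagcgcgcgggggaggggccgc
Cish: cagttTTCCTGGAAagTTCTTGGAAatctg
The Socs1 window held 2 ISRE matches on the opposite strand that overlap each other, at positions -83 to -74 and -77 to -68 from the start. The Socs3 window held 1 STAT match at -154 to -146. The Cish window held 2 STAT matches, at 1 to 9 and at 12 to 20. Among all windows, 3.44% held an ISRE match and 0.225% held 2, and 8.3% held a STAT match and 0.457% held 2. No match to the NF-kB consensus (8.46% of all windows) or to AP-1 (7.81%) was present in the 4 windows, and the Socs4 window held none of the 4 motifs. These matches describe the sequence only, and binding was not measured.

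Between 18850224 and 32672370 counts per library were assigned to genes, and 3 counts, taken as the smallest detectable level, corresponded to 0.0897 to 0.145 CPM (counts scaled to library size after TMM normalisation). The floor covers counting error only. Stromal markers were high in all 12 libraries, with Col1a1 at 3543 to 12784 CPM and Acta2 at 6936 to 14900 CPM. The epithelial gene Epcam had 1 to 15 counts and the T cell gene Cd3e had 0 or 1, although the 9 epithelial markers together summed to between 41.1 and 155 CPM. The 4 mesothelial markers summed to between 108 and 445 CPM in embryonic and between 270 and 1041 CPM in adult libraries, and the 6 neural and glial markers to between 13.1 and 72.8 CPM and between 72.5 and 139 CPM. Markers of other cells varied between libraries. The leukocyte gene Ptprc ranged from 0.337 to 162 CPM and the macrophage gene Adgre1 from 0.626 to 224 CPM. The endothelial gene Pecam1 ranged from 0.422 to 431 CPM. The 18 listed macrophage markers summed to 288, 545 and 3363 CPM in the embryonic PBS libraries (replicates 1, 2 and 3) and to 232, 1229 and 2527 CPM with embryonic LPS. In the adult libraries they summed to 222, 68.6 and 72.4 CPM with PBS and to 232, 56.3 and 67.2 CPM with LPS. The 8 endothelial markers stayed between 9.87 and 37.0 CPM in the embryonic libraries, and in the adult libraries reached 1823 and 1754 CPM in PBS and LPS replicate 2. In replicate 3 they were at 392 and 366 CPM and in replicate 1 at 21.0 and 15.9 CPM. In such bulk samples, fewer cells of a type and less RNA per cell cannot be told apart.

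In embryonic stroma, LPS raised Socs1 and Socs3, the only members of the 8 to pass the test (edgeR quasi-likelihood, Benjamini-Hochberg adjusted p under 0.05 over all tested genes). Across all tested genes 2.67% rose in this comparison. Socs1, an inhibitor of JAKs at interferon receptors, was at 0.784, 1.28 and 0.359 CPM in PBS replicates 1, 2 and 3, and at 8.94, 14.3 and 38.4 CPM in the LPS libraries. The lowest LPS library was above the highest PBS library, and replicate 3 had both the lowest PBS and the highest LPS level. The fitted change was 25.3-fold, a log2 fold change of 4.66 ± 0.66 (SE, 95% interval 3.19 to 6.14, edgeR adjusted p = 0.00598).

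Socs3, the feedback inhibitor at gp130-type receptors, was at 1.87, 1.62 and 3.62 CPM with PBS and at 22.2, 85.5 and 253 CPM with LPS in embryonic stroma. No overlap was seen, and the LPS libraries themselves spread over a wider range than those of any other member. The fitted change was 50.7-fold (log2 fold change 5.66 ± 0.93, SE, 95% interval 3.60 to 7.73, edgeR adjusted p = 0.0107). Within the same replicate number, Socs1 was 11.4-, 11.2- and 107-fold higher with LPS, and Socs3 was 11.9-, 52.9- and 70.0-fold higher. The largest ratios of both genes were those of replicate 3, the embryonic number with the highest macrophage markers, and the smallest Socs3 ratio was that of replicate 1, with the lowest. In replicate 1 the macrophage markers summed to 288 CPM with PBS and 232 CPM with LPS. Among them the markers named above rose, Ptprc from 7.53 to 19.6 CPM and Adgre1 from 13.3 to 18.7 CPM. The sum over the list was lower with LPS, so other markers of the list fell. Socs1 and Socs3 were both more than 11-fold higher in that number, where all 18 macrophage markers had over 3 counts in each library. The part of macrophages in the result was not tested. Without LPS replicate 3, the fitted Socs1 change was 14.0-fold (edgeR adjusted p = 0.00716) and the Socs3 change 21.9-fold (edgeR adjusted p = 0.0166). With both replicate 3 libraries left out, these were 11.0-fold (edgeR adjusted p = 0.0103) and 29.8-fold (edgeR adjusted p = 0.0284). With both replicate 2 libraries left out, Socs1 was 41.1-fold higher (edgeR adjusted p = 0.0208). The Socs3 call was lost without PBS replicate 1 (edgeR adjusted p = 0.0718), without both embryonic replicate 2 libraries (edgeR adjusted p = 0.0655) and without both adult replicate 3 libraries (edgeR adjusted p = 0.0556). When the embryonic libraries were fitted alone without the block, no member passed (edgeR adjusted p = 0.119 for Socs1 and 0.133 for Socs3).

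**Figure D1:**
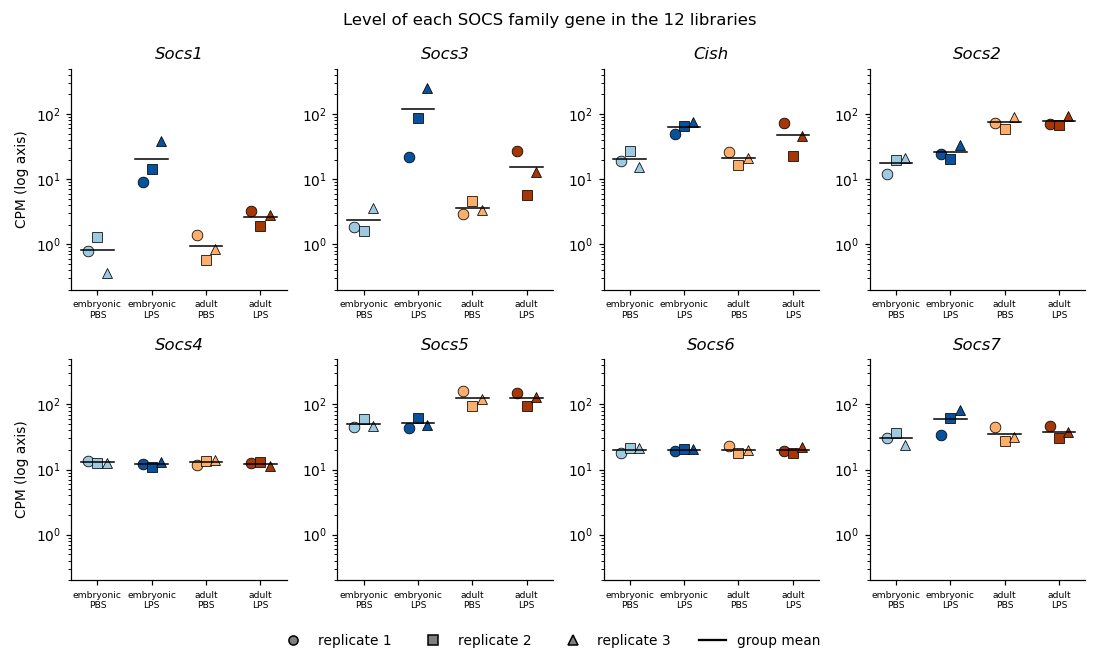
Level of each SOCS family gene in CPM (log axis) in every library, with replicate 1 as circles, replicate 2 as squares, replicate 3 as triangles and a line at the group mean (n = 3). Socs1 and Socs3 sat lowest in the PBS groups and were far higher in embryonic LPS, whereas Socs2 and Socs5 were separated by stage and Socs4 and Socs6 stayed level across the 4 groups.

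Cish, an inhibitor of STAT5-activating receptors, was expressed in unstimulated cells, with 19.0, 27.5 and 15.1 CPM in embryonic PBS and 50.1, 64.996 and 76.4 CPM in embryonic LPS. The groups did not overlap, as was the case for 3 of the 8 members (Socs1, Socs3 and Cish), against 7.58% of all tested genes. The 3.11-fold change missed the threshold (log2 fold change 1.64 ± 0.39, SE, edgeR adjusted p = 0.0571). It passed by DESeq2 (adjusted p = 0.00179), by the likelihood ratio test of edgeR (adjusted p = 0.00212), with library totals in place of TMM (edgeR adjusted p = 0.0488) and without adult LPS replicate 1 or 2 (edgeR adjusted p = 0.0375 and 0.0208). With the replicate number as a block, by which each LPS library was compared with the PBS library of its own number, it was 3.14-fold and passed (log2 fold change 1.65 ± 0.24, SE, edgeR adjusted p = 0.00351). Under the block 3 of the 8 members rose in embryonic stroma, against 9.43% of all tested genes.

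In adult stroma, no member passed the test without the block, where 0.598% of all tested genes rose. Unadjusted edgeR p-values were under 0.05 for 3 members (Socs1, Socs3 and Cish), against 727 of the 13038 tested genes. DESeq2 also called 0 members, and its share of all genes was not counted. Adult Socs1 was at 1.39, 0.578 and 0.852 CPM with PBS and at 3.19, 1.94 and 2.77 CPM with LPS. The groups did not overlap, although the highest adult LPS library lay below the lowest embryonic one. The fitted log2 fold change was 1.47 (95% interval 0.13 to 2.81, edgeR adjusted p = 0.737), and the ratios within replicate numbers were 2.29, 3.35 and 3.24.

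Adult Socs3 was at 2.89, 4.67 and 3.34 CPM in the PBS libraries, and LPS brought 27.4, 5.78 and 13.1 CPM. These groups did not overlap either, so that 2 of the 8 members were separated in adult stroma, against 9.10% of all tested genes. The fitted log2 fold change was 2.09 (95% interval 0.30 to 3.88, edgeR adjusted p = 0.648). Within replicate numbers the LPS level was 9.48, 1.24 and 3.92 times that of PBS, with the largest ratio in replicate 1, which also held the lowest endothelial and highest macrophage marker level of the adult numbers, and the smallest in replicate 2, with the highest endothelial level. Their part in the result was not tested.

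Adult Cish was at 26.5, 16.4 and 21.2 CPM with PBS and at 72.5, 22.9 and 46.1 CPM with LPS, and LPS replicate 2 lay below PBS replicate 1. Without the block the change was 2.21-fold (log2 fold change 1.14 ± 0.38, SE, edgeR adjusted p = 0.469). With the block it was 2.05-fold and passed (log2 fold change 1.04 ± 0.24, SE, edgeR adjusted p = 0.044), as the only one of the 8 members, against 4.69% of all tested genes. The ratios within replicate numbers were 2.74, 1.40 and 2.18, in the same order over replicates as those of Socs3. When the adult libraries were fitted alone with the block, 3 members passed, namely Socs1 (edgeR adjusted p = 0.00375), Socs3 (edgeR adjusted p = 0.0325) and Cish (edgeR adjusted p = 0.00575). The share of all tested genes that passed in this fit was not counted, so no background stands beside these 3.

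**Figure D2:**
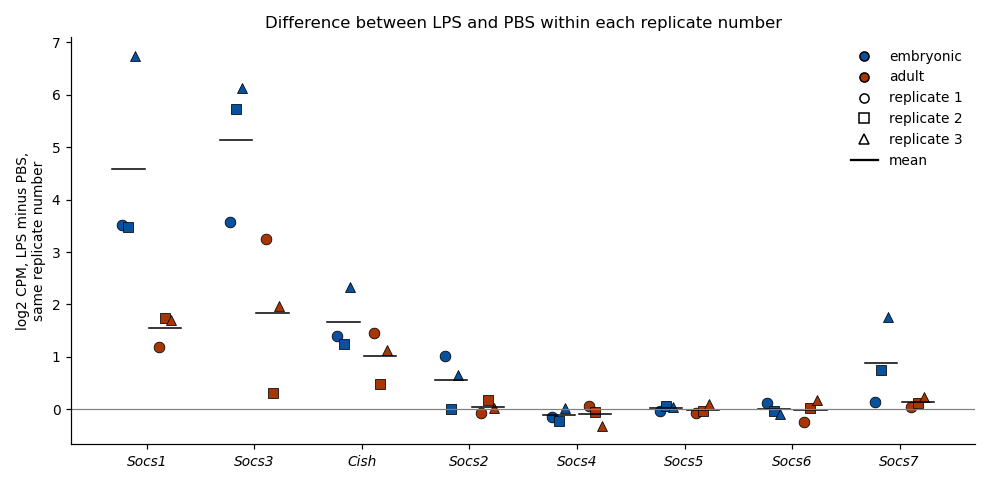
Difference in log2 CPM between the LPS and PBS libraries of the same replicate number, for embryonic (blue) and adult (brown) stroma, with replicates 1, 2 and 3 as circles, squares and triangles and the mean as a line. Embryonic differences of Socs1 (3.48 to 6.74) and Socs3 (3.57 to 6.13) lay above all adult ones (1.197 to 1.74 and 0.31 to 3.25), and those of Cish overlapped.

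The stages were then compared directly. For Socs1 and Socs3, every embryonic difference between LPS and PBS exceeded every adult one, and 9.66% of all tested genes showed this. Socs1 differed by a mean log2 CPM of 4.58 ± 1.87 (SD, n = 3) in embryonic and 1.55 ± 0.30 in adult stroma, and Socs3 by 5.14 ± 1.38 and 1.84 ± 1.47. The interaction of stage and LPS did not pass for any member, or for any gene tested (0% of 13038 genes by the edgeR quasi-likelihood test, with 293 at an unadjusted p under 0.05, and 0 of the 8 members by DESeq2). Its estimate was 3.19 ± 0.85 on the log2 scale (SE, 95% interval 1.30 to 5.08, edgeR unadjusted p = 0.00364, adjusted p = 1) for Socs1 and 3.57 ± 1.13 (95% interval 1.06 to 6.09, edgeR unadjusted p = 0.00997, adjusted p = 1) for Socs3. With the block the estimates were 2.93 (edgeR adjusted p = 0.272) and 3.38 (edgeR adjusted p = 0.208), where 0.798% of all genes passed as higher in the embryonic response. Without both embryonic replicate 3 libraries the blocked Socs1 interaction passed at an estimate of 1.97 (edgeR adjusted p = 0.0275). For Cish the interaction was 0.49 (95% interval -0.70 to 1.68), an interval that holds both a smaller and a larger response in the embryo.

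With LPS present, Socs1 was 7.80-fold higher in embryonic than in adult stroma (log2 difference 2.96 ± 0.61, SE, edgeR adjusted p = 0.0253). Its embryonic LPS libraries all lay above the adult ones, as for no other member, but 13.4% of all tested genes showed this too. Socs1 was the only member called higher, against 3.04% of all tested genes. This call was lost when embryonic LPS replicate 3 (4.32-fold, edgeR adjusted p = 0.0635) or any 1 of the 3 adult LPS libraries was left out (edgeR adjusted p = 0.0739, 0.0843 and 0.107). Socs3 was 7.79-fold higher on the same scale, with overlapping groups, and did not pass (log2 difference 2.96 ± 0.81, SE, edgeR adjusted p = 0.063). It did by DESeq2 (adjusted p = 0.00117), by the likelihood ratio test of edgeR (adjusted p = 0.00415) and without embryonic LPS replicate 1 (edgeR adjusted p = 0.0262). Without embryonic LPS replicate 3 the log2 difference was 1.76, and without adult LPS replicate 1 it was 3.68, where it did not pass (edgeR adjusted p up to 0.208 over the libraries left out). With PBS, Socs1 and Socs3 did not pass between stages, and the 95% intervals of the log2 difference, embryonic minus adult, were -1.59 to 1.13 and -2.41 to 1.19. Macrophage marker sums also differed between the stages, with 232 to 2527 CPM in embryonic LPS and 56.3 to 232 CPM in adult LPS. By flow cytometry the study found a higher percentage of CD45+CD11b+ leukocytes in embryonic than in adult cultures. The part of these cells in the stage differences and in the interaction was not tested.

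**Figure D3:**
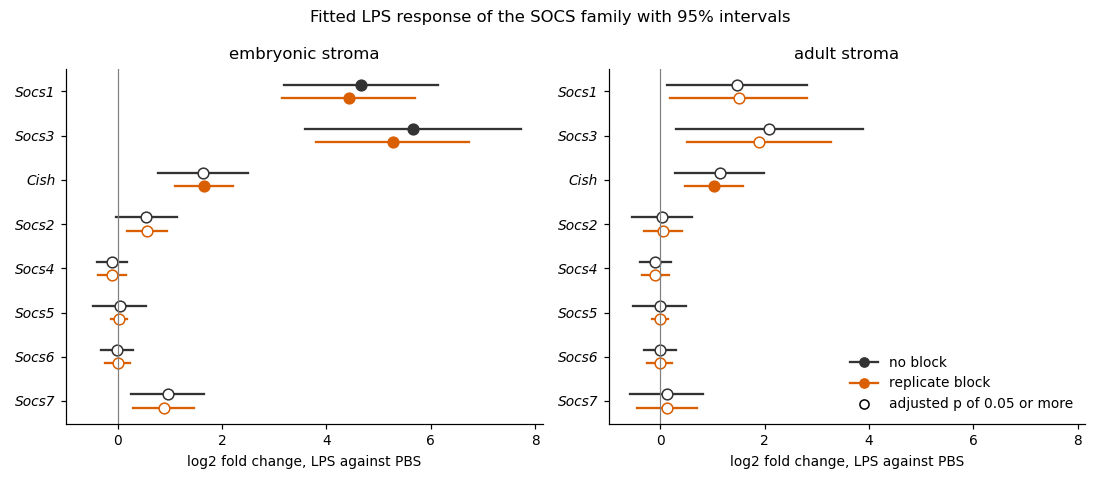
Fitted log2 fold change of each member between LPS and PBS with its 95% interval, without a block (grey) and with the replicate block (orange), and open circles mark an adjusted p of 0.05 or more. Socs1 and Socs3 passed in both fits in embryonic stroma, of these fits Cish passed only that with the block in both stages, and the intervals of Socs4, Socs5 and Socs6 included 0 in every fit.

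Socs2, the regulator of growth hormone receptor signalling, separated the libraries by stage. It was at 11.99, 20.03 and 21.3 CPM in embryonic PBS and 74.0, 59.6 and 91.7 CPM in adult PBS. With LPS it was at 24.2, 20.2 and 33.4 CPM in embryonic and 70.4, 67.9 and 93.0 CPM in adult stroma. Every adult library was thus above every embryonic one. Embryonic Socs2 was 4.23-fold lower with PBS (log2 difference -2.08 ± 0.27, SE, edgeR adjusted p = 0.00354) and 2.97-fold lower with LPS (log2 difference -1.57 ± 0.27, SE, edgeR adjusted p = 0.013). LPS left adult Socs2 at a fitted log2 fold change of 0.04 (95% interval -0.54 to 0.62). In embryonic stroma the value was 0.55 (95% interval -0.04 to 1.13, edgeR adjusted p = 0.525, and 0.0687 with the block), with LPS over PBS ratios of 2.02, 1.01 and 1.57.

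Socs5, linked to EGF receptor and IL-4 signalling, had the other stage difference. It ranged from 45.1 to 58.9 CPM in embryonic PBS and from 95.5 to 158 CPM in adult PBS, and from 43.9 to 62.0 CPM and 93.1 to 150 CPM with LPS. Again the stages did not overlap, and Socs5 was 2.48-fold lower in embryonic than adult stroma with PBS (log2 difference -1.31 ± 0.23, SE, edgeR adjusted p = 0.0161) and 2.41-fold lower with LPS (log2 difference -1.27 ± 0.23, SE, edgeR adjusted p = 0.0179). Hence 2 of the 8 members were called lower in the embryo with PBS, against 2.57% of all tested genes, and the same 2 with LPS, against 2.27%. Non-overlap in this direction was seen for 11.9% of all genes with PBS and 11.8% with LPS. Both genes were lowest in adult replicate 2, the number with the highest endothelial markers, in either treatment, and even there lay above every embryonic library. Neural and glial marker sums were also higher in every adult library than in the embryonic libraries of the same treatment, and mesothelial sums reached higher in the adult with overlapping ranges. Macrophage marker sums went the other way, with 288 to 3363 CPM in embryonic and 68.6 to 222 CPM in adult PBS. The part of these cells in the result was not tested. Leaving out single libraries ended the Socs5 call with PBS in 3 cases (without embryonic PBS replicate 1 or 3 or adult PBS replicate 3, edgeR adjusted p = 0.0572, 0.0512 and 0.053). With LPS it was lost without adult LPS replicate 1 or 3 (edgeR adjusted p = 0.0625 and 0.0747), and the Socs2 call without adult LPS replicate 3 (edgeR adjusted p = 0.0614), so that no member passed with LPS without that library. When a change of at least 2 on the log2 scale was also required, Socs2 alone passed with PBS (2.23% of all genes) and Socs1 alone with LPS (2.95%). Both Socs1 and Socs3 met this limit for LPS against PBS in the embryo (1.93%). At an adjusted p under 0.01, Socs1 was the 1 member left in that comparison (0.913% of all genes), Socs2 the 1 left between stages with PBS (0.782%), and none was left with LPS (0.736%).

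Socs7, which binds signalling adaptors and moves between nucleus and cytoplasm, was at 30.3, 37.0 and 24.3 CPM in embryonic PBS and at 33.4, 62.5 and 81.8 CPM in embryonic LPS. The groups overlapped, since LPS replicate 1 was below PBS replicate 2. Its fitted log2 fold change of 0.96 did not pass (95% interval 0.25 to 1.66, edgeR adjusted p = 0.208, and 0.0602 with the block). The ratios of 1.10, 1.69 and 3.37 within replicate numbers increased in the same order as the Socs3 ratios in the embryo and as the macrophage markers of the LPS libraries, whose part was not tested. Adult Socs7 was at 44.8, 27.8 and 31.6 CPM in PBS libraries and at 46.1, 30.5 and 37.3 CPM in LPS libraries, with ratios of 1.03, 1.09 and 1.18 and a log2 fold change of 0.13 (95% interval -0.57 to 0.83).

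Socs4 and Socs6 were the steadiest members. Socs4, a further regulator of EGF receptor signals, lay between 10.8 and 14.1 CPM and Socs6, a regulator of KIT and insulin signals, between 17.7 and 23.0 CPM over the 12 libraries. The 95% intervals of their LPS responses were -0.39 to 0.19 and -0.31 to 0.30 on the log2 scale in embryonic stroma, and -0.39 to 0.20 and -0.32 to 0.30 in adult stroma. For Socs5 they were -0.47 to 0.54 and -0.51 to 0.50. Changes of more than about 1.5-fold therefore fell outside the intervals of all 3 genes in each stage. LPS exceeded PBS within every replicate number for 5 members in the embryo (Socs1, Socs3, Cish, Socs2 and Socs7), against 23.0% of all genes. It did so for 4 in the adult (Socs1, Socs3, Cish and Socs7), against 24.0%, and for those 4 in all 6 replicate numbers, against 13.0%.

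**Figure D4:**
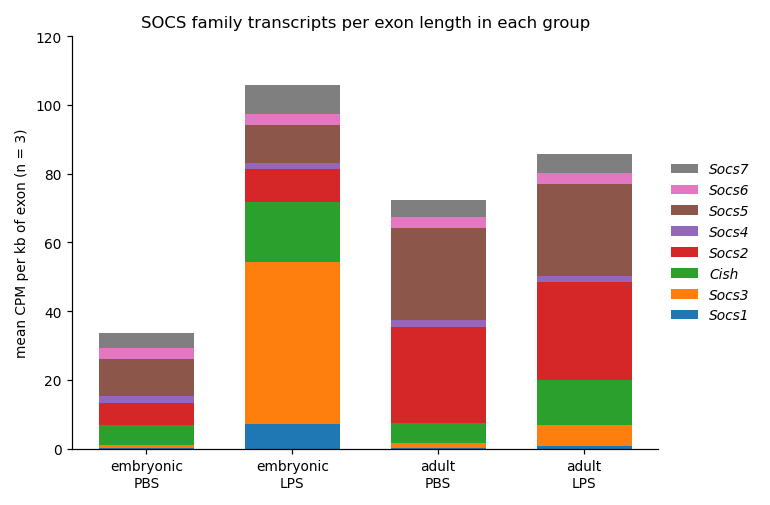
Mean CPM per kilobase of exon (n = 3 libraries a group), stacked over the 8 SOCS family genes. Socs5 and Socs2 made up most of the adult bars, and Socs3 was the largest block in embryonic LPS, where its mean of 47.2 had an SD of 46.8.

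Levels of different genes were compared per kilobase of exon (GENCODE vM21 lengths). For Socs1 this length, 2908 bases, is longer than its whole RefSeq span. The annotation used for counting was not stated, so Socs1 per kb may be too low, which would also affect the family shares. With PBS in adult stroma, Socs2 (27.8 ± 5.96 CPM per kb, SD, n = 3) and Socs5 (26.8 ± 6.83) were highest and did not differ beyond their spread. They were followed by Cish (5.86 ± 1.39), Socs7 (4.96 ± 1.27), Socs6 (3.29 ± 0.43), Socs4 (1.92 ± 0.17), Socs3 (1.42 ± 0.36) and Socs1 (0.324 ± 0.142). Of these neighbours, Cish and Socs7 overlapped between libraries, and Socs4 and Socs3 did too. With PBS in embryonic stroma the order began with Socs5 (10.8 ± 1.62), Socs2 (6.58 ± 1.87), Cish (5.63 ± 1.74) and Socs7 (4.35 ± 0.91), of which Socs2, Cish and Socs7 overlapped. Socs1 was again lowest, at 0.278 ± 0.159 CPM per kb. In adult LPS the order at the top was kept, with Socs2 at 28.6 ± 5.12, Socs5 at 26.7 ± 6.21 and Cish at 12.9 ± 6.81 CPM per kb, and Socs3 (6.05 ± 4.32) overlapped Cish and Socs7 (5.41 ± 1.12). After LPS in embryonic stroma Socs3 had the highest mean, 47.2 ± 46.8 CPM per kb, with Cish next at 17.5 ± 3.62 and overlapping it, and Socs1 reached 7.06 ± 5.39. Expressed as a share of the family total per kb in each library, Socs3 was 2.82% ± 1.41 (SD, n = 3) in embryonic PBS and 36.8% ± 20.6 in embryonic LPS, against 2.08% ± 0.95 and 6.58% ± 3.61 in adult stroma. Socs2 and Socs5 together led the adult family in both treatments, with 38.6% ± 5.47 and 36.7% ± 4.18 with PBS and 34.3% ± 7.55 and 31.1% ± 0.82 with LPS.

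**Figure D5:**
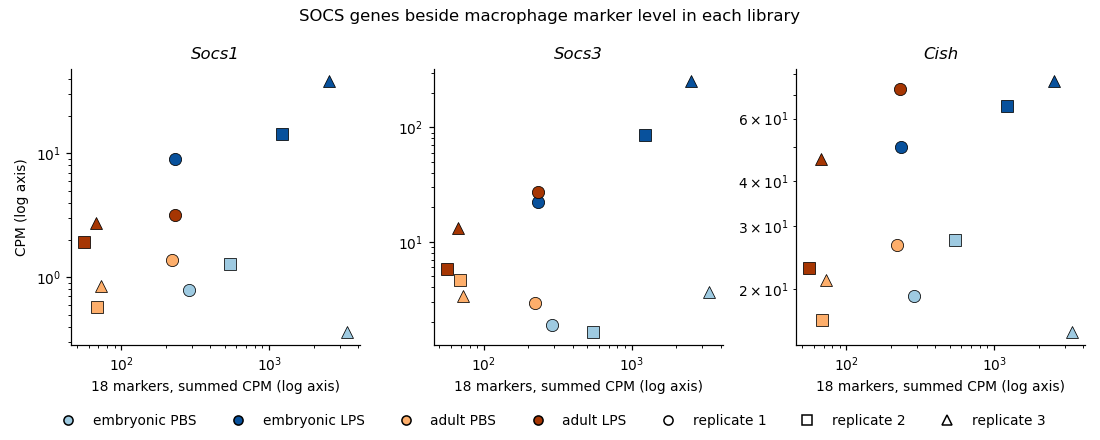
CPM of Socs1, Socs3 and Cish (log axes) against the summed CPM of 18 macrophage markers in each library, coloured by group, with replicate numbers as shapes. Among embryonic LPS libraries all 3 genes were higher where the marker sum was higher (232, 1229 and 2527 CPM), whereas the embryonic PBS library with the highest sum (3363 CPM) had the lowest Socs1 and Cish and the highest Socs3 level of its group.

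The genes around the family in the pathway were taken from 6 lists with 88 genes, of which 71 were tested. In embryonic stroma 11 of the 71 rose and none fell, where 2.67% of all tested genes rose and 0.0767% fell. In adult stroma 3 rose and none fell, where 0.598% of all tested genes rose and 0.00767% fell. With the block 26 rose and 2 fell in embryonic stroma (9.43% and 3.12% of all genes), and 21 rose and 2 fell in adult stroma (4.69% and 1.51%). The same shares are the background for each single list below. The embryonic count dropped to 2 without embryonic PBS replicate 1 and to 7 without embryonic PBS replicate 2. The adult count was 1 without adult PBS replicate 1 or 2, 0 without adult PBS replicate 3 and 7 without embryonic LPS replicate 3. The median log2 fold change of all tested genes was near 0 in both stages (-0.000274 and -0.00749). Unadjusted edgeR p-values without the block were under 0.05 for 1407 tested genes in embryonic and 727 in adult stroma.

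Among 11 tested cytokine ligands of JAK-coupled receptors, 5 rose in embryonic stroma (Csf2, Ifnb1, Il15, Il6 and Tslp, and 9 with the block) and 2 in adult stroma (Csf2 and Tslp, and 6 with the block), with median log2 fold changes of 2.62 and 3.05. Ifnb1, the interferon beta gene, had no counts in any PBS library and a mean of 12.7 ± 11.4 CPM (SD, n = 3) in embryonic LPS, at least 140-fold above the level of 3 counts per PBS library (edgeR adjusted p = 0.0452). In adult LPS it reached only 0.507 ± 0.523 CPM, at least 4.26-fold above the same floor. Csf2, which encodes the granulocyte-macrophage growth factor GM-CSF, went from 0 counts to 11.9 ± 5.08 CPM in embryonic stroma (at least 131-fold, edgeR adjusted p = 0.00326), and in adult stroma from at most 1 count to 32.4 ± 24.2 CPM (edgeR adjusted p = 0.00683). Tslp, a ligand that activates STAT5, rose in adult stroma from 1.07 ± 0.59 to 19.6 ± 8.21 CPM (log2 fold change 4.196, edgeR adjusted p = 0.00683). The embryonic Ifnb1 call was lost when any 1 library other than embryonic LPS replicate 1 was left out (edgeR adjusted p up to 0.133). The adult Csf2 call was lost without any 1 of the adult PBS libraries (edgeR adjusted p up to 0.0966), and the adult Tslp call without adult PBS replicate 3 (edgeR adjusted p = 0.0647).

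Of 17 tested receptor chains, 3 rose in embryonic stroma (Il15ra, Osmr and Ifngr2, and 10 with the block) and 1 in adult stroma (Ifnar1, and 8 with the block). Il15ra, the IL-15 receptor alpha chain, rose from 0.521 ± 0.455 to 15.4 ± 14.6 CPM in the embryo (log2 fold change 4.87, edgeR adjusted p = 0.0177). Osmr, which pairs with gp130 and is a receptor that Socs3 restrains, rose from 14.7 ± 4.94 to 99.4 ± 80.8 CPM (log2 fold change 2.76, edgeR adjusted p = 0.0211). Ifnar1, a chain of the receptor for interferon beta, rose in adult stroma from 86.05 ± 4.57 to 164 ± 21.7 CPM (log2 fold change 0.93, edgeR adjusted p = 0.0101). Il15ra and Osmr did not pass without embryonic PBS replicate 1 or 2 (edgeR adjusted p up to 0.0748 and 0.12), nor did Ifnar1 without any 1 of the adult PBS libraries or adult LPS replicate 3 (edgeR adjusted p up to 0.0829).

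Among 9 tested JAK kinases and STAT factors, 2 rose in embryonic stroma (Stat2 and Jak2, and 4 with the block, which added Jak1 and Tyk2) and none in adult stroma (edgeR, with 4 at an unadjusted p under 0.05), where the block gave 4 (Stat2, Stat5a, Jak2 and Tyk2). Stat2 rose from 11.1 ± 7.76 to 208 ± 155 CPM (log2 fold change 4.23, edgeR adjusted p = 0.00822). Jak2, a kinase of growth hormone and gp130-type receptors among others, rose from 48.3 ± 12.2 to 162 ± 93.9 CPM (log2 fold change 1.74, edgeR adjusted p = 0.0351). Stat2 did not pass without embryonic PBS replicate 1 (edgeR adjusted p = 0.0596), and Jak2 was lost in 9 of the 12 fits that left out a single library (edgeR adjusted p up to 0.11), the others being those without embryonic LPS replicate 1 or 2 or adult LPS replicate 2. In adult stroma Jak2 was at 54.0 ± 6.68 and 133 ± 36.1 CPM (log2 fold change 1.30, edgeR adjusted p = 0.252, 0.032 with the block and 0.0394 without embryonic LPS replicate 3). Stat5a, a factor upstream of Cish, was at 7.70 ± 0.89 CPM in adult PBS and 33.8 ± 17.7 CPM in adult LPS (log2 fold change 2.14, edgeR adjusted p = 0.172, and 0.0255 with the block).

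None of the 6 ligase partners of the SOCS box passed the edgeR test in either stage, with or without the block, and 1 had an unadjusted p under 0.05 in the embryo and 0 in the adult. Cul2 had the largest embryonic value (log2 fold change 0.30, edgeR adjusted p = 0.36), Rnf7 was at -0.13 there, and in adult stroma Eloc was at 0.13 and Cul5, the main cullin of SOCS ligases, at -0.09. Of the 12 other negative regulators, 1 rose in embryonic stroma and none in adult stroma (edgeR, with 2 at an unadjusted p under 0.05). This was Usp18, an interferon-induced inhibitor of the interferon receptor, which went from 1.36 ± 1.17 to 188 ± 155 CPM (log2 fold change 7.10, edgeR adjusted p = 0.00227). In adult stroma it was at 2.07 ± 0.38 and 14.9 ± 5.49 CPM (log2 fold change 2.85, edgeR adjusted p = 0.133, and 0.000302 with the block). The block also called Ptpn2, a JAK phosphatase, in both stages (log2 fold change 0.76, edgeR adjusted p = 0.00857 in the embryo, and 0.58, edgeR adjusted p = 0.0425 in the adult). With the block, the interaction passed for 2 of the 71 genes, Stat2 and Usp18, both with the larger response in the embryo. Among all tested genes 0.798% passed in this direction.

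The 16 tested proteins with a SOCS box outside the family showed no edgeR call without the block, with 1 at an unadjusted p under 0.05 in the embryo and 2 in the adult. Asb13 was at 4.63 ± 1.54 and 11.5 ± 8.83 CPM in the embryo (log2 fold change 1.32, edgeR adjusted p = 0.241, and 0.0168 with the block). Spsb1, which limits inducible nitric oxide synthase, was at 115 ± 17.4 and 337 ± 177 CPM in the adult (log2 fold change 1.54, edgeR adjusted p = 0.285, and 0.0106 with the block). With the block Asb2 and Spsb4 fell in both stages, by log2 fold changes of -0.53 and -0.52 in the embryo and -0.49 and -0.75 in the adult. The genes named here from the block were chosen after their values were seen.

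The 3 genes with the most similar pattern to each member were found by the root mean square difference of centred log2 CPM (prior count of 2) over the 12 libraries. For Socs1, with an SD of 1.95 over the libraries, these were 9130017N09Rik, BC006779 and Slfn4, at 0.577 to 0.623. For Socs3, with an SD of 2.27, they were Adora2a, Gpr18 and Ifih1, at 0.506 to 0.680. Slfn4 and Gpr18 lay below the level of 3 counts in every PBS library, and Slfn4 also in adult LPS (0.0308 to 0.0864 CPM). Their values there are set mostly by the prior count. Adora2a, an adenosine receptor, had the replicates in the same order as Socs3 in the LPS libraries, with 1.82, 6.46 and 18.8 CPM in embryonic LPS and 2.38, 0.523 and 1.90 CPM in adult LPS. In the PBS libraries it lay between 0.0915 and 0.55 CPM and the order differed from that of Socs3. The RNA sensor Ifih1 was at 118, 187 and 546 CPM in embryonic LPS but did not share the low value of adult replicate 2 (28.2, 41.2 and 35.6 CPM in adult LPS). The genes nearest to Cish (SD 0.855) were Zfp36, Rnf19b and Rab11fip1, at 0.257 to 0.297. Zfp36, which destabilizes cytokine mRNAs, was at 103, 131 and 179 CPM in embryonic LPS and 125.4, 32.9 and 74.0 CPM in adult LPS, the order seen for Cish in these libraries. Zbtb38, Naprt1 and Drp2 were nearest to Socs2 (0.273 to 0.305, SD 1.03), and Mxra8, Tmem98 and Haus7 to Socs5 (0.168 to 0.191, SD 0.712). Mob3c, Cpeb4 and B3gnt2 were nearest to Socs7 (0.190 to 0.216, SD 0.505). For Socs4 (Dgcr14, Decr1 and Dctn1) and Socs6 (Tbcd, Tprgl and Zdhhc4) the SD was only 0.110 and 0.126, so many flat genes would come close.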

How the data were processed

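Poly(A)-selected, strand-specific mRNAseq was performed by the authors on 12 libraries, and the 3 replicates of a stage are described as independent cultures. The authors trimmed reads, mapped them with STAR to GRCm38.p6 (at most 1 mismatch, unique reads) and deposited raw counts per gene symbol; the counts on the strand of the library chemistry were used. Rows that name no gene held 17.4% to 19.9% of the reads and were left out, and 1.14% to 1.98% of the gene counts lay on the opposite strand. Cish has antisense neighbours (Gm17040 and Gm17041), and no member shares exons with another gene on its strand. The filter kept genes over 0.5 CPM in every library of some group, and these were tested in R 4.3.3 with edgeR 4.0.16 (quasi-likelihood test, TMM, 1 fit over all 12 libraries, 4 groups, no block) and Benjamini-Hochberg adjustment. SEs are the log2 fold change over the root of F. The scripts were tested on simulated data.

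The labels number the libraries, and no source used here says that equal numbers share a culture. Deviations from the group mean went together within a number and stage (correlations 0.710 to 0.784 in embryonic and 0.610 to 0.850 in adult stroma), so the number was used as a block in an alternative fit. Other alternatives were DESeq2 1.42.0, the likelihood ratio test, other size factors, filters and thresholds, both strands together, thinning, each stage alone and each library left out. Leaving out both libraries of a number was added after seeing the data. The members, lists and markers were chosen with earlier results of these data known. From the list of JAK kinases and STAT factors, 1 gene is not reported here and was left out of the counts over the lists. Named genes are the 8 members, by list and stage, the 2 genes that rose most and the 2 that fell most (without calls, the 2 of largest absolute change), the 3 nearest patterns and the defining markers, and Elob, Eloc and Adgre1 were matched through RefSeq synonyms. Python 3.11.15 and matplotlib 3.10.9 drew the plots.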

Additional observations from a re-analysis of the deposited data

Results flagged for a closer look

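Socs3 carried counts on the strand opposite to the gene in embryonic LPS, a column that entered no comparison: the lowest of these libraries had 4 counts, and the others 32 and 29, against 0 in each embryonic PBS library. They were 0.629%, 1.28% and 0.442% of the Socs3 counts on both strands, and over all genes 1.14% to 1.98% of the counts lay on that strand.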

How the results depend on the processing

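Socs1 and Socs3 kept their direction for LPS against PBS in both stages, and Socs2 and Socs5 between stages, under every alternative run. Fewer members passed in the embryo at an adjusted p under 0.01 (1) and with the stage fitted alone (0), against 2, and 3 passed with the block, by DESeq2, by the likelihood ratio test, with library totals and with the stage alone and the block, where Cish was gained. In the adult the count went from 0 to 1 with the replicate block and to 3 with the stage fitted alone and the block. With library totals 277 of all tested genes rose in the embryo. Shares of all genes passing by DESeq2, by the likelihood ratio test, with a stage fitted alone or with libraries left out were not counted. Between stages, the limits of a log2 change of 2 and of an adjusted p of 0.01 left 1 and 1 member with PBS and 1 and 0 with LPS. Leaving out libraries gave 1 to 4 members in the embryo, 0 to 2 in the adult, 0 to 1 for the interaction, and 1 to 2 with PBS and 0 to 4 with LPS between stages. For the pathway lists the embryonic count of 11 became 28 with the block, 18 by DESeq2, 0 with the stage alone and 18 with the stage alone and the block, and 2 to 30 with libraries left out. The adult count of 3 became 23, 14, 9 and 29 under these settings, 13 by the likelihood ratio test, and 0 to 27 with libraries left out. The cause of these shifts was not tested. Numbers did not pair libraries across stages (correlations -0.306 to -0.0022), and a block across stages changed no call of a member.

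Without TMM factors, the median of all genes shifted by -0.134 (log2) in the embryonic response, mean Socs4 in embryonic PBS was 13.6 CPM, and mean Socs6 in embryonic LPS was 19.2 CPM. The sign changed only for log2 changes that did not pass without the block. With library totals these were, for LPS, embryonic Socs5 (-0.094) and Eloc (-0.057) and adult Socs2 (-0.00036) and Cul2 (-0.018), for the interaction Socs5 (-0.045) and Socs6 (-0.091), and between stages Socs4 with PBS (0.011) and Socs6 with LPS (-0.043). After thinning, Socs6 was at 0.021 for embryonic LPS, 0.011 for adult LPS, -0.036 between stages with PBS and -0.026 with LPS, and Socs4 between stages at 0.040 with PBS and 0.012 with LPS. Without a filter Socs6 was at -0.013 for the interaction, -2.0e-05 with PBS and -0.013 with LPS. Between stages with PBS it was at -0.00031 with the block, -0.0028 by DESeq2, -8.2e-05 by the likelihood ratio test, -0.0012 with RLE factors and -0.00038 with a filter at 1 CPM.

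Libraries left out also turned such values. The embryonic LPS changes ranged from -0.12 to 0.17 for Socs5, -0.12 to 0.047 for Socs6, -0.034 to 0.17 for Eloc and -1.06 to 0.075 for Spsb4. The adult ones ranged from -0.12 to 0.21 for Socs2, -0.18 to 0.0026 for Socs4, -0.17 to 0.21 for Socs5, -0.13 to 0.11 for Socs6, -0.040 to 0.35 for Socs7, -0.053 to 0.095 for Cul2 and -0.090 to 0.037 for Rnf7. The interaction ranged from -0.14 to 0.071 for Socs4, -0.17 to 0.21 for Socs5 and -0.12 to 0.098 for Socs6. Between stages with PBS the ranges were -0.73 to 0.16 for Socs1, -0.33 to 0.13 for Cish, -0.093 to 0.026 for Socs4, -0.080 to 0.11 for Socs6 and -0.36 to 0.039 for Socs7, and with LPS -0.11 to 0.034 for Socs4 and -0.057 to 0.098 for Socs6. Depth limits Socs1 most, with 12 counts in its lowest library.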
